A study of Rattus norvegicus with 10 samples.

Results

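Interneurons, the inhibitory nerve cells of the hippocampus, are told apart by the peptides they release and the calcium-binding proteins they hold. The genes described here are 10 such markers: the peptide precursors Sst, Vip, Npy, Cck, Penk and Tac1, the calcium-binding proteins Pvalb, Calb1 and Calb2, and the secreted matrix protein Reln. They were chosen as a list of known markers, and the rows of the deposited table that carry one of these symbols were taken, with rows of the same symbol summed in each library. All 10 symbols were found, on 12 of the 25269 rows of the table, among 16647 distinct gene names. The libraries came from the hippocampus of male Sprague-Dawley rats of 200 to 240 g that had sham surgery (5 libraries, sham 1 to 5) or a traumatic brain injury by fluid percussion (5 libraries, TBI 1 to 5), taken 1 week later and after a learning test. No genetic change or drug is named for either group, and the sources used here do not give the side of the brain that was taken. The labels do not state that each library is 1 animal, so the errors below measure the spread between libraries, which may be technical in part.

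GABA is the transmitter of these cells, and the markers divide them into classes with different targets. Parvalbumin cells mostly contact the cell bodies and initial axons of pyramidal cells, somatostatin cells their outer dendrites, and many calretinin or VIP cells contact other interneurons. Several of the markers are not confined to interneurons: calbindin is abundant in dentate granule cells, pyramidal cells contain some cholecystokinin messenger RNA, and reelin is also made by Cajal-Retzius cells, which lie along the hippocampal fissure. In tissue RNA, fewer cells of a class and less RNA per cell cannot be told apart.

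Of the 10 genes, 6 had a window from 250 bases before to 50 bases after the gene's start in a RefSeq promoter table of the GRCr8 build, a later rat assembly than the one used for the values. The 3 windows shown are those of Sst, Vip and Tac1, peptide precursors that were all highest in the same library (sham 1), as was Cck, which had no window. The cAMP response element, the site first described in the somatostatin promoter, was searched on both strands as TGACGTCA, together with its overlapping 5-base part TGACG. Capitals mark the matches, and each window is written 5′ to 3′ in the direction of transcription. The windows are chr11:90461296-90461595 for Sst, chr1:44470230-44470529 for Vip and chr4:36645333-36645632 for Tac1, each on the plus strand.

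Sst: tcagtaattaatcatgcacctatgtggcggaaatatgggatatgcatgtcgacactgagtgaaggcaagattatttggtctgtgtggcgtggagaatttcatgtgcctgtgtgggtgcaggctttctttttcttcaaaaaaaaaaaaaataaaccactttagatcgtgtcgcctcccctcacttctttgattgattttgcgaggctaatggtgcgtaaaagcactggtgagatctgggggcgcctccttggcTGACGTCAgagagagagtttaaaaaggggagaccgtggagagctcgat

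Vip: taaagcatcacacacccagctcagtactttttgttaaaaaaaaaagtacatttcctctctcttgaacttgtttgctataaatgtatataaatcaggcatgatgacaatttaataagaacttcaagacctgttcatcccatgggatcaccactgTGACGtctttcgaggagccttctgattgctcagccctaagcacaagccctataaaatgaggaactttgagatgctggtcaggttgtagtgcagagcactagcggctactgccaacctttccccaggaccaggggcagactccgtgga

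Tac1: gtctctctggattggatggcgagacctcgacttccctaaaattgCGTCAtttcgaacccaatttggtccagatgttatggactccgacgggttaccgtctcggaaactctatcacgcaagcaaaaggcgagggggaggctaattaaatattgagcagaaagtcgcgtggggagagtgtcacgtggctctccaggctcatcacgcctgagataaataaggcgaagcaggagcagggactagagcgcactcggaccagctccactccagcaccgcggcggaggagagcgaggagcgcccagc

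Counted from 1 at the 5′ end of the window, the full element of Sst began at base 253, after the annotated start. That start is an annotation only, and where transcription of Sst begins was not tested. Vip carried the shorter TGACG at base 154, and Tac1 carried it on the opposite strand at base 45. Pvalb had 1 short match at base 10 of its window, while the windows of Npy and Reln held neither form. Of 33469 windows of the same length in the table, 1.83% held the full element and 21.2% the short one, so a short match was common. These matches describe letters only.

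The values are FPKM, fragments per kilobase of a transcript relative to the sequenced fragments of its library. They are per length, so levels of different genes can be set side by side. The sums of FPKM per library ran from 523239 to 629660, the read depth is unknown, and Spearman correlations between libraries over all rows ran from 0.940 to 0.984. Hippocampal principal cell markers were present, with granule cell markers summing to 59.3 to 138 FPKM (3 of 5 in the table) and pyramidal cell markers to 664 to 1339 FPKM (all 5 in the table, 1 of them, Fibcd1, listed at 0). Adjoining tissues varied widely. Choroid plexus markers summed to between 51.5 and 33067 FPKM (8 of 9 in the table, none at 0) and markers of meninges and matrix to between 40.2 and 600.5 FPKM (9 of 9, with Col1a2 listed at 0). Libraries sham 1 and TBI 1 stood apart in the markers described here, as given below.

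Averaged over the 10 libraries, Cck was the most abundant of the markers at 217 FPKM, followed by Sst at 192 FPKM. These neighbours were not separable, since Cck exceeded Sst in 6 of 10 libraries. Pvalb followed at 107 FPKM and Calb1 at 47.3 FPKM, below the gene before it in 10 of 10 libraries each. Penk at 30.1 FPKM was below Calb1 in 9 of 10 libraries, and it exceeded Reln, at 22.2 FPKM, in 7 of 10. Calb2 at 12.6 FPKM and Vip at 11.3 FPKM were again not separable, with Calb2 the higher in 4 of 10. Tac1 was lowest of the 9 measured genes at 6.29 FPKM.

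Npy, the precursor of neuropeptide Y, was listed at 0 in both of its rows in 9 libraries, and 1 row was at 0.243 FPKM in TBI 3. A listed 0 need not be an absence of RNA in this table. Rpl8, Rpl38 and Rps27a, ribosomal protein genes that every cell uses, were also listed at 0 in all 10 libraries, as were 2538 of the 16647 gene names (15.2%). Npy therefore gives no level and no comparison here. Low values above 0 carry the same doubt, since Hprt1, a housekeeping enzyme, was at 0.266 to 0.575 FPKM and the ribosomal protein gene Rps18 at 0.89 to 2.75 FPKM. The order of the markers is thus the order of the deposited values, which may be partial for some genes.

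Whether these markers differ 1 week after the injury is the question of the contrast between TBI and sham. Of the 9 markers with a mean of at least 0.5 FPKM, 5 had a higher mean after TBI (Sst, Penk, Tac1, Calb2 and Reln) and 4 a lower one (Vip, Cck, Pvalb and Calb1), and 0 of 9 had a limma p under 0.05 once adjusted (Benjamini-Hochberg) for the 16194 rows tested. Of all those rows 0% passed as well. At an unadjusted p under 0.05 in limma there were 0 of the 9 markers, against 1.41% of rows higher and 1.51% lower after TBI. Groups did not overlap in 0 of the 9 markers and in 0.482% of rows. The median log2 difference of the 9 markers was 0.12, and that of all rows was 0.00. No marker passed the filter on low values through 1 group alone.

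**Figure D1:**
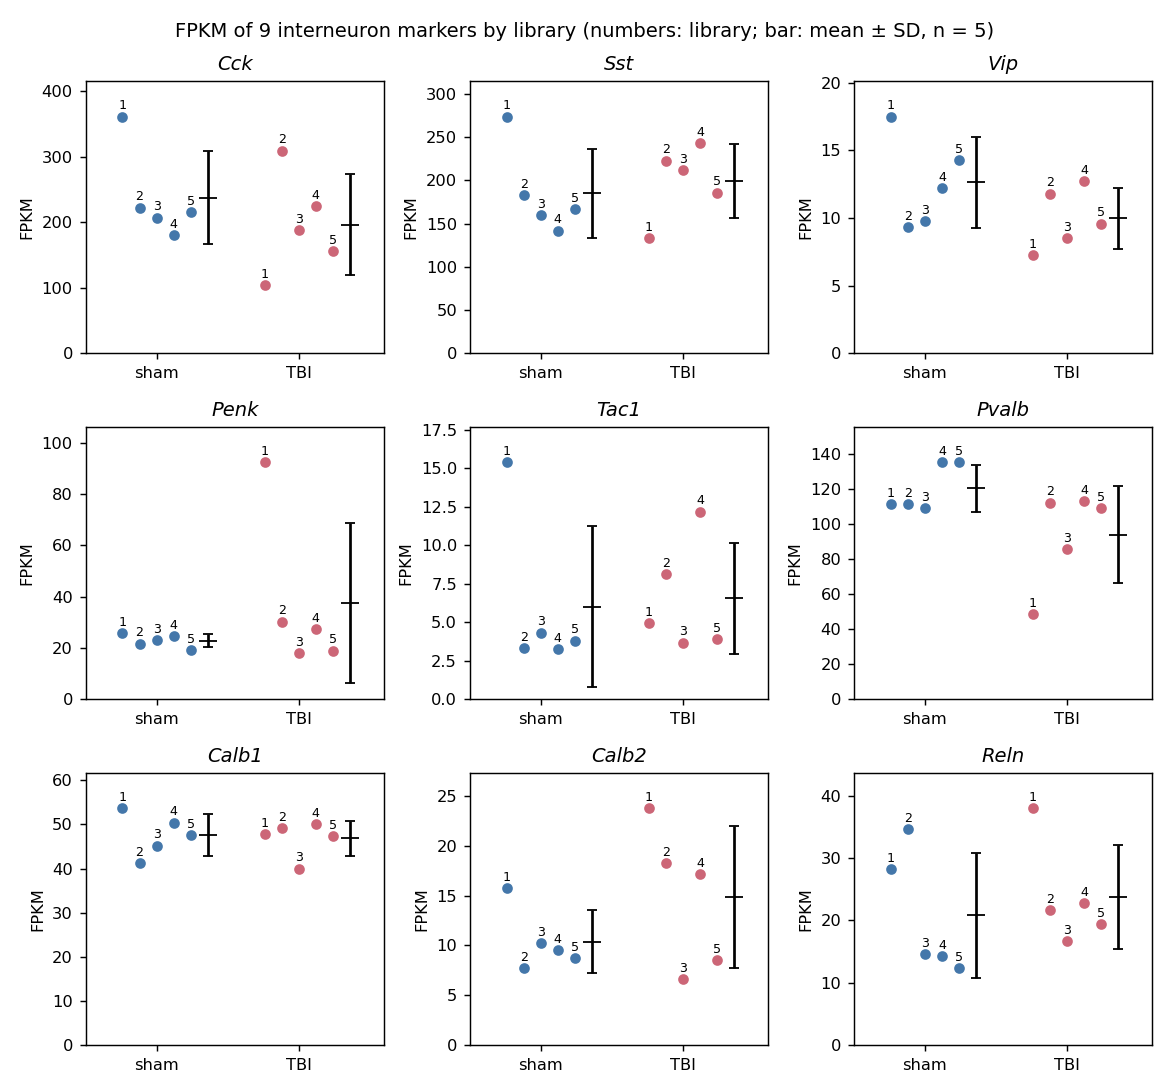
FPKM (vertical axis, from 0) of 9 markers in each sham library (blue) and each TBI library (red); small numbers give the library and the black bar the mean ± SD of 5. Sham and TBI values overlap in each panel, and the extreme points are mostly sham 1 (Cck 361 FPKM, Tac1 15.4 FPKM) and TBI 1 (Penk 92.3 FPKM, Pvalb 48.5 FPKM).

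Among the peptides, Sst encodes somatostatin, which dampens dendrites and transmitter release. It was at 274, 183, 159.7, 142 and 167 FPKM in sham 1 to 5 and at 133, 223, 212, 243 and 186 FPKM in TBI 1 to 5. Sham 1 and TBI 1 lay at opposite ends, and the groups overlapped. The means were 185 ± 51.7 and 199.6 ± 42.5 FPKM (SD, n = 5 each), a difference of 0.12 (SE 0.20) in log2(FPKM + 0.5) with a 95% interval of -0.32 to 0.56 and limma's adjusted p = 0.983. Among the libraries numbered 2 to 5 alone, the 4 TBI libraries all lay above the 4 sham libraries. There the log2 difference was 0.41 (SE 0.11, 95% interval 0.17 to 0.65) with limma's adjusted p = 0.913 (0.592 to 1.00 over the alternative fits). Sst was the 1 marker of 9 without overlap in those libraries, where 2.88% of all rows had none. Sham 1 and TBI 1, left out there, held the highest and the lowest Sst value of all libraries. Leaving out both therefore raises the difference and narrows the spread, so this fit cannot show a change in Sst.

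Vip, vasoactive intestinal peptide, marks cells that mainly inhibit other interneurons. It was at 17.5, 9.34, 9.80, 12.2 and 14.3 FPKM in sham and at 7.27, 11.8, 8.53, 12.7 and 9.59 FPKM after TBI. Of the TBI libraries, 4 lay below the sham mean on the log2 scale, within a range that overlapped with sham. The log2 difference was -0.32 (SE 0.19, 95% interval -0.74 to 0.11), with limma's adjusted p = 0.983 and an exact permutation p of 0.175. It was -0.19 (SE 0.18) without sham 1, -0.21 (SE 0.19) without TBI 1 and -0.09 (SE 0.16) with libraries 2 to 5 alone.

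Cck encodes cholecystokinin, the peptide of a class of basket cells that also carry cannabinoid receptors. Its values were 361, 222, 207, 180.2 and 215 FPKM in sham and 104, 309, 188, 224 and 156 FPKM after TBI. The highest and the lowest library, sham 1 and TBI 1, differed 3.47-fold, and the other 8 libraries lay between 156 and 309 FPKM. The log2 difference was -0.32 (SE 0.28, 95% interval -0.93 to 0.29), and with libraries 2 to 5 alone it was 0.05 (SE 0.19).

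Penk, the precursor of the enkephalins, which act at opioid receptors, was at 25.8, 21.6, 22.9, 24.5 and 19.2 FPKM in sham and at 92.3, 30.2, 17.8, 27.4 and 18.9 FPKM after TBI. A single library, TBI 1, set the wide spread after injury, and the remaining TBI values lay around the sham range. The log2 difference of 0.42 (SE 0.37, 95% interval -0.41 to 1.24) was 0.02 (SE 0.16) without TBI 1. In the same library the summed markers of thalamus and habenula, regions beside the hippocampus, stood at 83.4 FPKM, against 9.33 to 16.2 FPKM in sham and 10.5 to 15.9 FPKM in the other TBI libraries. Of 7 such markers 6 were in the table and none was at 0 throughout. Chrnb4, a nicotinic receptor subunit abundant in the medial habenula, made up most of that sum at 57.6 FPKM, with at most 1.05 FPKM in any other library. The kinase gene Prkcd was also highest there at 17.7 FPKM, against 2.62 to 9.43 FPKM elsewhere. The habenula markers Gpr151 and Nhlh2 were at 0.383 and 0.26 FPKM in TBI 1, with up to 0.356 and 0.349 FPKM in sham, and Lef1 at 3.25 FPKM was below its sham mean of 4.09 FPKM. Summed striatal markers (8 of 8 in the table) were at 102 FPKM in TBI 1, within the 56.6 to 115 FPKM of sham, and the genes of that list went different ways there. Rgs9 was highest in TBI 1 at 15.8 FPKM (1.55 to 3.64 FPKM elsewhere), while the dopamine receptor Drd1 at 1.99 FPKM and the phosphodiesterase Pde10a at 8.38 FPKM were lowest there, with sham means of 4.61 and 12.7 FPKM. The part of these tissues in the Penk value was not tested.

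Tac1 encodes the precursor of substance P and neurokinin A. It was at 15.4, 3.32, 4.33, 3.26 and 3.80 FPKM in sham and at 4.94, 8.13, 3.67, 12.2 and 3.90 FPKM after TBI. Values above 8 FPKM were found in sham 1, TBI 2 and TBI 4, and the other 7 libraries lay between 3.26 and 4.94 FPKM. Tac1 had the largest spread of the 9 markers, with an SD of 0.75 on the log2 scale over the 10 libraries, against a median of 0.23 over all rows. Its log2 difference was 0.24 (SE 0.44, 95% interval -0.72 to 1.20). Without sham 1 it was 0.63 (SE 0.31), with limma's adjusted p = 0.925 (0.650 to 1.00 over the alternative fits).

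Of the calcium-binding proteins, parvalbumin (Pvalb) buffers calcium in fast-spiking cells. It was at 111, 111, 109, 135 and 135 FPKM in sham and at 48.5, 112, 85.6, 113 and 109 FPKM after TBI. All 5 TBI libraries lay below the sham mean on the log2 scale, but 3 of them lay between the lowest and the highest sham library. The means were 119.9 ± 13.6 and 93.7 ± 27.6 FPKM (SD, n = 5 each). The log2 difference of -0.41 (SE 0.22, 95% interval -0.89 to 0.06) had limma's adjusted p = 0.983 and an exact permutation p of 0.135. Without TBI 1 it was -0.19 (SE 0.11, 95% interval -0.44 to 0.05). Pvalb had the smallest unadjusted p of the 9 markers.

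Calbindin (Calb1), a calcium buffer of granule cells and of some interneurons, was the steadiest of the 9 markers. Its values were 53.7, 41.3, 45.2, 50.4 and 47.5 FPKM in sham and 47.8, 49.2, 40.0, 50.05 and 47.4 FPKM after TBI. The highest library was 1.34-fold above the lowest, the groups overlapped, and the SD was 0.13 on the log2 scale over the 10 libraries. The means of 47.6 ± 4.76 and 46.9 ± 4.02 FPKM (SD, n = 5 each) differed by -0.02 on the log2 scale (SE 0.09, 95% interval -0.22 to 0.18). A granule cell marker that encodes a synaptic C1q-like protein, C1ql2, varied more, from 41.7 FPKM in sham 1 to 103 FPKM in sham 4.

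Calretinin (Calb2), the related protein of many interneuron-selective cells, was at 15.8, 7.75, 10.2, 9.51 and 8.71 FPKM in sham. After TBI it was at 23.8, 18.3, 6.61, 17.2 and 8.54 FPKM. TBI 1, TBI 2 and TBI 4 lay above every sham library and TBI 3 below every one, so the injured libraries spread to both sides of sham. The log2 difference was 0.39 (SE 0.33, 95% interval -0.34 to 1.12) with limma's adjusted p = 0.983, and it was 0.19 (SE 0.31) without TBI 1 but 0.64 (SE 0.29) without TBI 3.

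Reelin (Reln) guides neuronal layering in development and acts at synapses in the adult. Summed over its 2 rows it was at 28.2, 34.6, 14.6, 14.2 and 12.3 FPKM in sham and at 38.0, 21.6, 16.7, 22.7 and 19.4 FPKM after TBI. TBI 1 was highest and 3 of the 5 sham libraries were lowest, with sham 1 and sham 2 above all TBI libraries except TBI 1. The log2 difference of 0.25 (SE 0.31, 95% interval -0.43 to 0.93) was 0.06 (SE 0.29) without TBI 1. The more abundant row alone gave 0.03 (SE 0.37), because the second row, listed at 0 in 6 libraries, was at up to 7.61 FPKM in TBI 3. Markers of Cajal-Retzius cells (4 of 4 in the table) summed to 0.371 to 2.82 FPKM in sham and 0.763 to 3.86 FPKM after TBI, most of it Tp73. The sums were nearly alike in TBI 1 and TBI 5 (3.86 and 3.76 FPKM), where Reln was at 38.0 and 19.4 FPKM. The remaining markers of these cells, all at low values, were highest in TBI 1. Lhx1, Lhx5 and Ebf3 were at 0.136, 0.155 and 0.667 FPKM there, against 0.0271, 0 and 0.12 FPKM in TBI 5. Meninges markers were highest in TBI 1, sham 2 and sham 4 (600.5, 485 and 409.8 FPKM), and Reln was high in the first pair but at 14.2 FPKM in sham 4. Sham 1, with the third highest Reln, had the lowest choroid plexus sum of all, 51.5 FPKM. The part of these cells in the Reln and Calb2 values was not tested.

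**Figure D2:**
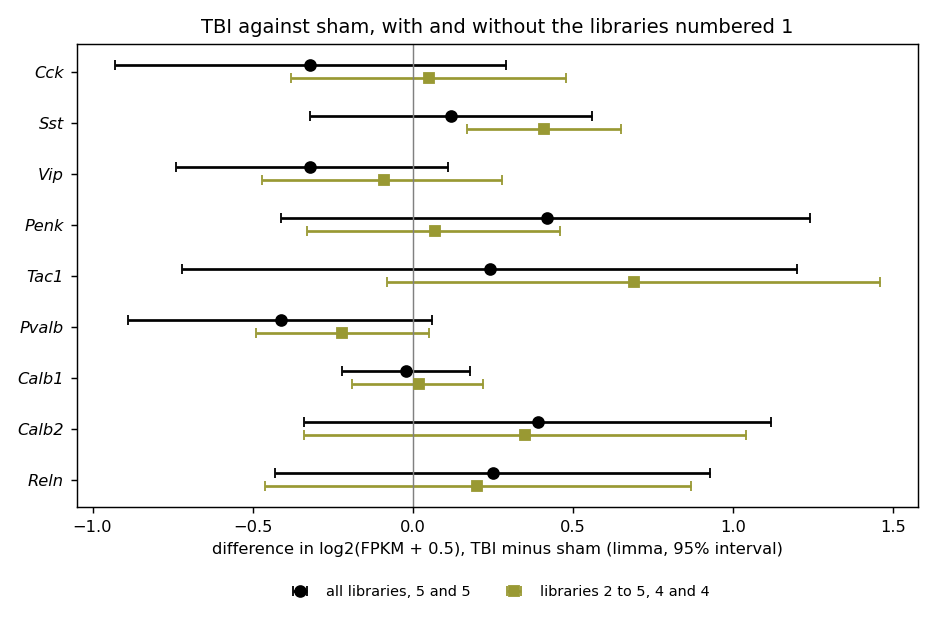
Difference in log2(FPKM + 0.5), TBI minus sham, with limma's 95% interval (horizontal axis) for each marker, over all libraries (black circles) and without the libraries numbered 1 (olive squares). The intervals over all libraries include 0 for the 9 markers. Without sham 1 and TBI 1 the Sst interval runs from 0.17 to 0.65 and the other 8 include 0. Sham 1 and TBI 1 held the highest and the lowest Sst value, so leaving them out raises the Sst difference.

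The extreme values lay in few libraries. Sham 1 held the highest value of 5 of the 9 markers (Sst, Vip, Cck, Tac1 and Calb1). TBI 1 held the lowest of 4 (Sst, Vip, Cck and Pvalb) and the highest of 3 (Penk, Calb2 and Reln), so 7 of 9 markers had an extreme there. The median size of the markers' deviation from their means was 0.85 in TBI 1 and 0.43 in sham 1 on the log2 scale, and 0.13 to 0.38 in the other 8 libraries. Sham 1 had the least granule cell marker RNA, 59.3 FPKM in sum against 71.6 to 138 FPKM elsewhere. TBI 1 had the least pyramidal cell marker RNA, 664 FPKM against 906 to 1339 FPKM elsewhere. Whether the makeup of these pieces bears on the marker values was not tested.

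**Figure D3:**
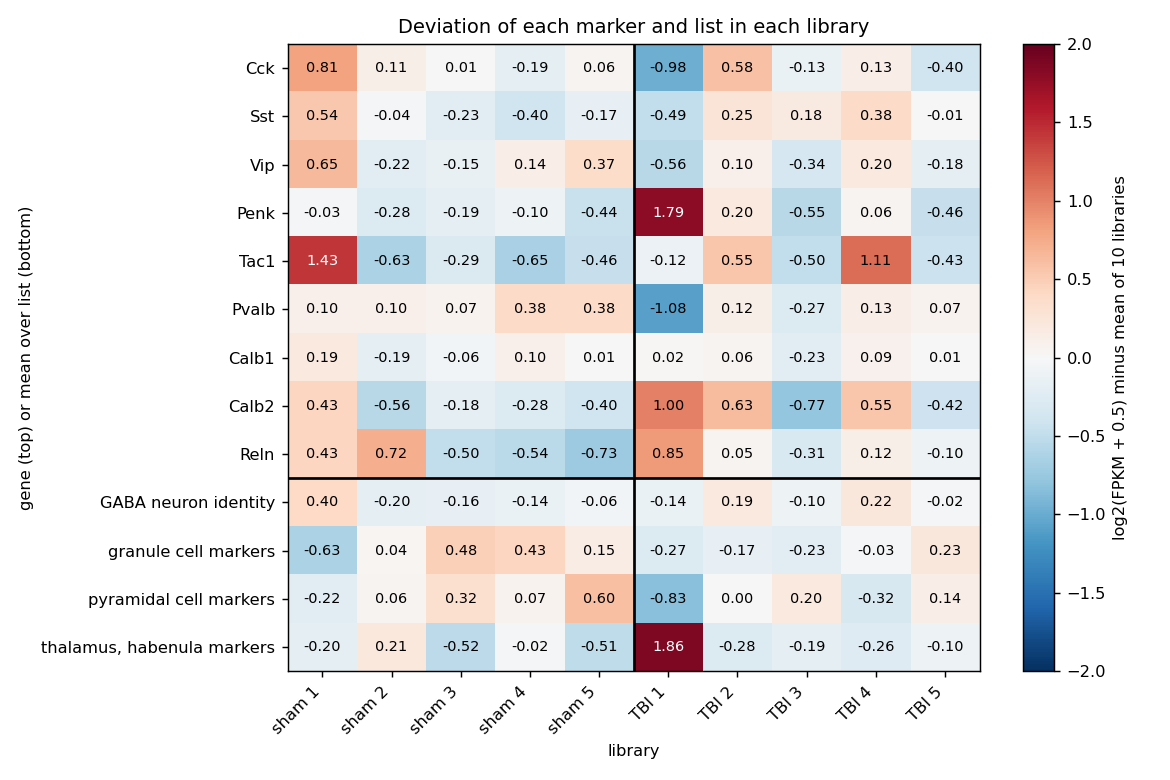
Deviation of log2(FPKM + 0.5) from the mean of the 10 libraries (colour and printed number) for 9 markers, above the line, and for the mean over 4 gene lists, below it; columns are libraries. TBI 1 reads 1.79 for Penk and -1.08 for Pvalb beside 1.86 for markers of thalamus and habenula, and sham 1 reads 1.43 for Tac1 beside 0.40 for GABA neuron identity. The 1.86 is a mean over 4 tested genes that went different ways. In TBI 1 Chrnb4 was at 57.6 FPKM, while Lef1 at 3.25 FPKM was below its sham mean of 4.09 FPKM.

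General markers of GABA neurons are shared by the classes, and their RNA too mixes the number of cells with the RNA per cell. Gad1 and Gad2, the enzymes that make GABA, were at 65.1 ± 15.3 and 46.2 ± 10.8 FPKM in sham and at 69.9 ± 11.5 and 51.0 ± 3.64 FPKM after TBI, and the vesicular GABA transporter Slc32a1 was at 35.3 ± 12.0 and 37.2 ± 2.62 FPKM (SD, n = 5 each). In all 3 the highest value was in sham 1, at 91.5, 64.3 and 56.6 FPKM, which was also the library with the most Sst, Vip, Cck and Tac1. The list of GABA neuron identity genes summed to 448 FPKM in sham 1, 373 FPKM in TBI 2 and 370 FPKM in TBI 4, and to 273 to 307 FPKM in the other 7. Those 3 libraries were also the highest in Sst, Cck and Tac1, and the part of the GABA neuron marker level in these values was not tested.

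Set against the mean log2 of Gad1, Gad2 and Slc32a1 in the same library, the Sst difference went from 0.12 to -0.02 (SE 0.17). On this relative scale Vip was at -1.87 in sham and -2.32 after TBI, and all 5 TBI libraries lay below the sham mean. That difference of -0.45 (SE 0.17) had an exact permutation p of 0.0159 before any adjustment, 1 of 9 such p-values computed. Limma's adjusted p over all rows was 0.932. The other alternative fits for Vip, with limma's adjusted p from 0.900 to 1.00, did not use the GABA reference. Pvalb, at 1.36 and 0.81, differed by -0.55 (SE 0.25), again with all 5 TBI libraries below the sham mean, and with an exact permutation p of 0.0794. Its values after TBI ran from -0.05 to 1.10. Calb1 too had all 5 TBI libraries below the sham mean, at a difference of -0.16 (SE 0.15). Cck differed by -0.45 (SE 0.23), with 4 TBI libraries below. Penk, Tac1, Calb2 and Reln had a higher mean after TBI on this scale (0.28, 0.11, 0.26 and 0.11). By limma's unadjusted p, 2 of the 9 markers on this scale were under 0.05, Vip and Pvalb, as were 1.65% of all rows, and 0 rows passed adjustment. The groups overlapped for both genes.

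The receptors of these peptides and the partners of reelin were read from lists of related genes, in which 0 genes passed limma's test after adjustment. For these lists a higher or lower mean is that of log2(FPKM + 0.5). Of 15 tested receptor genes, 10 had a lower mean after TBI and 2 of these had an unadjusted p under 0.05 in limma, with a median log2 difference of -0.08. The somatostatin receptor Sstr2 was at 7.44 ± 0.609 and 5.53 ± 1.54 FPKM, and the brain cholecystokinin receptor Cckbr at 6.60 ± 1.24 and 4.62 ± 1.32 FPKM (SD, n = 5 each). Adcyap1r1, the PACAP receptor related to those for VIP, was at 46.3 ± 5.91 and 40.3 ± 3.31 FPKM. Limma's adjusted p was 0.983 for each of these 3 receptors. Of 6 tested genes of reelin signalling, 4 had a lower mean (median log2 difference -0.07) and 0 had an unadjusted p under 0.05. The adaptor Dab1, which carries the reelin signal inside the cell, was at 29.4 ± 4.24 and 24.4 ± 4.27 FPKM. The reelin receptor Vldlr was at 13.5 ± 1.28 and 15.2 ± 1.80 FPKM. Of the 10 libraries, TBI 1 was lowest in Sstr2, Cckbr, Adcyap1r1 and Dab1 (3.35, 2.45, 34.8 and 17.7 FPKM) and highest in Vldlr (17.4 FPKM). Differences without TBI 1 are not given here for these genes.

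Other genes of interneurons had means on both sides of sham. Of 16 tested GABA neuron identity genes, 11 had a higher mean after TBI (median log2 difference 0.07) and 0 had an unadjusted p under 0.05. The transcription factors Satb1, Dlx1 and Dlx5, which shape interneuron development, were at 18.2 ± 3.64, 5.85 ± 2.20 and 2.31 ± 0.869 FPKM in sham and at 15.2 ± 2.42, 7.39 ± 1.84 and 2.92 ± 0.824 FPKM after TBI. Of 17 tested markers of other interneuron subtypes, 13 had a lower mean log2 value (median difference -0.10, and 12 by mean FPKM) and 1 had an unadjusted p under 0.05 in limma. That gene was Syt2, a calcium sensor of fast transmitter release found in parvalbumin basket cell terminals, at 5.31 ± 2.19 and 2.86 ± 0.921 FPKM, a log2 difference of -0.78 (SE 0.27, adjusted p = 0.983). Kcnc1, a potassium channel of fast-spiking cells, was at 21.8 ± 1.07 and 18.2 ± 4.11 FPKM. Cort, which encodes the somatostatin relative cortistatin, was at 12.4 ± 3.23 and 9.51 ± 2.73 FPKM. The 6 genes of peptide processing all had a lower mean log2 value after TBI, with a median difference of -0.07. By mean FPKM 3 of the 6 were lower after TBI, among them the amidating enzyme Pam at 72.4 ± 9.92 and 65.1 ± 8.69 FPKM and the granule protein Scg5 at 395 ± 12.8 and 361 ± 79.7 FPKM. Pcsk2, a convertase that cuts peptide precursors, was at 84.6 ± 6.62 and 85.6 ± 24.5 FPKM, and 0 of the 6 had an unadjusted p under 0.05. TBI 1 was the lowest of the 10 libraries in Satb1, Syt2, Kcnc1, Cort, Pam, Scg5 and Pcsk2, but not in Dlx1 and Dlx5. Scg5 was at 223 FPKM in TBI 1 and 375 to 429.6 FPKM in the other TBI libraries. Kcnc1 was at 11.0 FPKM in TBI 1 and 19.2 to 21.2 FPKM in the others. Syt2 was at 1.33 FPKM in TBI 1 and 2.97 to 3.83 FPKM in the other TBI libraries. Among sham libraries, sham 4 was highest in Syt2 at 9.1 FPKM, against 3.78 to 5.29 FPKM in the rest. For comparison, 50.4% of all rows had a higher mean log2 value after TBI.

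The genes most like each marker over the 10 libraries were taken among 8236 named genes with a mean of at least 5 FPKM, by Pearson's r of the log2 values. With so many genes and 10 libraries, high values of r arise in any case, so these are descriptions. Sst was most like Cmas (0.967), which activates sialic acid, and Smarcd3 (0.955), a chromatin remodelling subunit. Vip was most like Hmgcll1 (0.970) and Oxct1 (0.940), both enzymes of ketone body metabolism. For Cck the nearest genes were Mypop (0.978) and Nckipsd (0.977), and for Tac1 they were Gnl3l (0.960) and Dld (0.951). Penk was nearest to Dlc1 (0.982) and Acbd3 (0.976), a Golgi protein, and Pvalb to Tpd52l2 (0.963) and the mitochondrial deacylase Sirt5 (0.960). Calb2 was nearest to Ankrd32 (0.962) and Txlng (0.960), and Reln to Ndufa11 (0.991), a subunit of respiratory complex I, and Thap4 (0.976). Calb1, the steadiest marker, had the lowest of these values, 0.935 with a row shared by LOC317456 and Lpgat1 and 0.928 with Dnm3.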

How the data were processed

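RNA of 10 rat hippocampus libraries was poly-A selected and sequenced on an Illumina instrument, as the labels' protocols say. For each library the authors deposited 1 column of FPKM values. The rn5 build and the tools Cufflinks, Cuffdiff, TopHat, Bowtie, TopHat2 and Bowtie2 are listed without roles or versions, per the submitters' processing notes. The sources used here give no annotation and no filters. The 75th percentiles of the deposited columns lay between 13.1 and 13.5 FPKM. Whole reads were not recovered from these values, and no count test was run.

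Rows sharing a symbol were summed in each library, leaving 23824 rows. Rows with a mean of at least 0.5 FPKM were tested with limma 3.58.1 in R 4.3.3 (mean trend, two-sided, log2(FPKM + 0.5), Benjamini-Hochberg over all rows tested, threshold 0.05). On this scale the change of low genes is understated. Exact permutation tests were two-sided over all 252 assignments of 5 and 5 libraries, with a smallest possible p of 0.00794. The fit was tested on simulated data. Named genes are the 10 markers, Gad1, Gad2 and Slc32a1, the 3 genes of smallest p in each related list (2 for lists with under 10 tested genes), marker genes that are most abundant or at 0, and the 2 genes most like each marker. Chosen after their values were seen were Rpl8, Rpl38, Rps27a, Hprt1, Rps18 and Pcsk2 and the markers Rgs9, Drd1, Pde10a, Prkcd, Gpr151, Nhlh2, Lef1, Lhx1, Lhx5 and Ebf3. The 10 markers and the lists were chosen with earlier results of these data known. The alternatives changed the pseudocount, the low-value filter, the scaling between libraries, limma's variance model, a replicate block, the libraries numbered 2 to 5, Ttr as covariate, single rows, the GABA reference and each library left out.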

Additional observations from a re-analysis of the deposited data

Results flagged for a closer look

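In 5 of the 18 groups of 5 values (9 markers, sham and TBI), 1 library lay so far from the nearest other that the gap exceeded 0.71 of the group's range, Dixon's 95% value for 5 samples. For normal values chance gives about 1 in 20 per group. The 18 groups share the same libraries and were read on the FPKM scale, so their count cannot be set against that rate. Cck was at 361 FPKM in sham 1, with the next sham library at 222 FPKM. Tac1 was at 15.4 FPKM in sham 1, with the next at 4.33 FPKM, a gap of 0.912 of the range. Penk was at 92.3 FPKM in TBI 1, with the next TBI library at 30.2 FPKM, and Reln at 38.0 FPKM in TBI 1, with the next at 22.7 FPKM. Calb1 was at 40.0 FPKM in TBI 3, just below the next TBI library at 47.4 FPKM, in a group of small range. In 4 of these 5 the library was sham 1 or TBI 1.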

How the results depend on the processing

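In each of the 22 alternative fits, and relative to the GABA genes, 0 of the markers passed limma's adjusted test. The count of rows past adjustment was 0 in each except without sham 4, where it was 2 (Plac9 at -3.86 and an unnamed locus at 3.01 on the log2 scale, named after their values were seen; range over single libraries left out, 0 to 2). The count of markers without overlap was 1 with libraries 2 to 5 (Sst) and 0 otherwise. Vip, Penk, Pvalb, Calb2 and Reln kept their sign in all 23 settings. The sign turned for Sst relative to the GABA genes (-0.016) and for Cck with libraries 2 to 5 (0.048). Over single libraries left out, Tac1 ran from -0.005 (without TBI 4) to 0.63 (without sham 1), and it was 0.69 with libraries 2 to 5. With each library left out in turn, Sst ran from 0.034 to 0.27, Vip from -0.41 to -0.19, Cck from -0.51 to -0.12, Penk from 0.02 to 0.60, Pvalb from -0.50 to -0.19, Calb2 from 0.19 to 0.64 and Reln from 0.065 to 0.46. Calb1 turned under quantile normalization (0.013), array weights (0.016), libraries 2 to 5 (0.016) and Ttr as covariate (0.043), and ran over single libraries left out from -0.07 to 0.035. The unknown depth leaves precision to the spread between libraries.

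The replicate block, which treats sham and TBI libraries of the same number as a pair, left 0 markers past adjustment. Same-numbered libraries did not deviate together: the correlations over rows were -0.100, -0.379, 0.045, -0.105 and 0.306 for numbers 1 to 5, so the numbers are not taken as pairs.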
